A study of Mus musculus with 9 samples.

Results

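The 38 genes described here make, store, mobilise and export glycerolipids in the liver. They were chosen by name, with earlier results of these data known. The list holds genes of triglyceride and phospholipid synthesis, lipid droplet coating, lipolysis and the assembly of very-low-density lipoprotein (VLDL). All 38 were found among the 27179 genes of the count table. RNA was sequenced from the livers of female Apoe-/- mice (5 libraries) and female Mif-2-/-Apoe-/- mice (4 libraries), so that the comparison asks how the loss of the cytokine MIF-2 bears on liver gene expression. Mice of both genotypes lacked Apoe, the apolipoprotein through which the liver clears lipoprotein remnants, and both were fed a high-fat diet (HFD), begun at 8 weeks of age and kept up for 12 weeks. The labels call the Apoe-/- mice WT, but no group with an intact Apoe gene or on another diet was analysed here.

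Triglyceride is built on a glycerol backbone in the endoplasmic reticulum (ER). Acyltransferases of the GPAT and AGPAT families add a pair of fatty acids to glycerol-3-phosphate and give phosphatidate, lipins remove the phosphate, and DGAT enzymes attach the last fatty acid, while the diacylglycerol that leaves this route is used for phosphatidylcholine and phosphatidylethanolamine. The product is stored in lipid droplets under a coat of perilipins, is hydrolysed by a cascade of lipases, or is loaded onto apolipoprotein B by the microsomal transfer protein and secreted as VLDL. Hepatocytes hold few and small droplets in the lean state, and droplets enlarge and their coat proteins accumulate in steatosis.

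The libraries were made from 3 to 4 pooled frozen sections each, and the labels number them without tying them to single mice. A figure legend of the study gives fewer mice per group than there are Apoe-/- libraries, so that Apoe-/- libraries may share a mouse. All were used as separate samples here, and the p-values measure the spread between these libraries. Their total counts ranged from 2318148 to 10764182, at which 3 counts corresponded to between 0.402 and 1.70 CPM (counts scaled to a common library size with TMM factors). Ddt, the gene of MIF-2, was at 233 to 972 CPM in the Apoe-/- libraries and at 2.51 to 5.49 CPM in the Mif-2-/-Apoe-/- libraries, which matched the labels. The defining hepatocyte transcripts were present in all 9 libraries, but unevenly. The 10 most abundant genes took under 15% of the counts in 3 libraries, Apoe-/- replicate 5 and Mif-2-/-Apoe-/- replicates 1 and 3, against up to 26.3% in the others. The summed hepatocyte markers ranged from 208379 to 295933 CPM in the Apoe-/- libraries other than replicate 5, which was at 94286 CPM. They ranged from 80495 to 123110 CPM in the Mif-2-/-Apoe-/- libraries other than replicate 2, which was at 256971 CPM. Adipoq, which defines adipocytes, was at 1.07 CPM or less in every library. In bulk tissue, fewer cells of a type and less RNA per cell cannot be told apart.

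Fold changes are given as log2 of Apoe-/- over Mif-2-/-Apoe-/-, with the standard error (SE), so that a positive value is a higher level in Apoe-/- livers. By edgeR's quasi-likelihood test with Benjamini-Hochberg adjustment, 0 of the 38 genes passed an adjusted p of 0.05, where 0.130% of all 16860 genes tested did. At an unadjusted p under 0.05, 7 of the 38 were higher in Apoe-/- livers (18.4%, against 6.52% of all genes) and 3 were lower (7.9%, against 8.99% of all genes). In 5 genes every Apoe-/- library was above every Mif-2-/-Apoe-/- library (13.2%, against 2.24% of all genes), and in 2 genes the reverse held (5.3%, against 2.03%). DESeq2, run as the other test, gave an adjusted p under 0.05 to 7 of the 37 genes for which it returned one (18.9%, against 4.93% of all genes), of which 5 were higher and 2 were lower in Apoe-/- livers. The median log2 fold change of the 38 genes was 0.58, with 24 above and 14 below zero, beside a median of -0.17 over all genes tested. The 6 hepatocyte markers that were tested had a median of 0.52, and whether the shift of the 38 genes is apart from theirs was not tested. The 38 genes were also chosen with earlier results of these data known, so these shares and medians are not independent support. The plot of fold changes by step shows that both directions occurred within the same enzyme families.

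**Figure D1:**
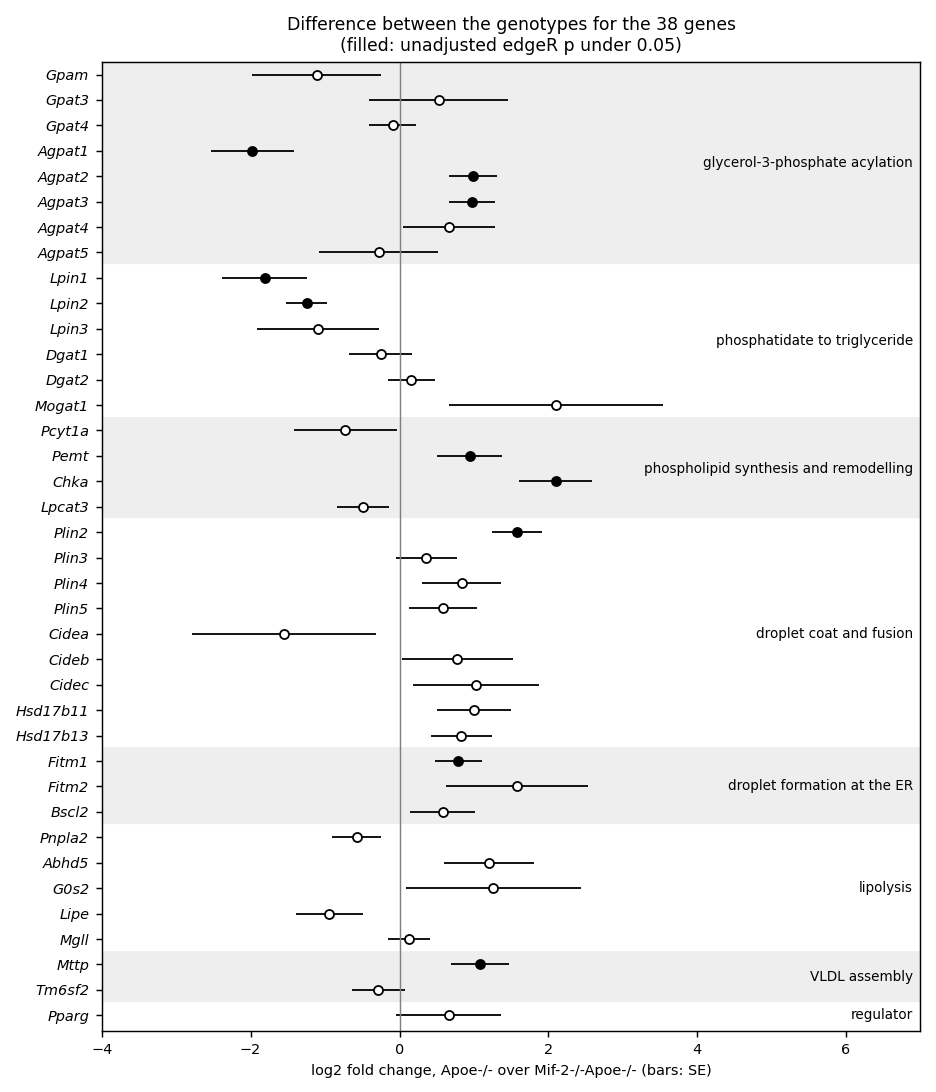
Log2 fold change of Apoe-/- over Mif-2-/-Apoe-/- livers (x axis, bars are the SE) for each of the 38 genes, grouped by step of the pathway, with filled points for the 10 genes at an unadjusted edgeR p under 0.05. Agpat1, Lpin1 and Lpin2 are the filled points left of zero, and Chka at 2.10 and Plin2 at 1.58 lie farthest to the right among the filled points.

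Acylation of glycerol-3-phosphate is the entry into the pathway, and of its 8 genes 4 had a positive and 4 a negative log2 fold change. The first acylation is carried out by GPAT enzymes, of which Gpat4, an enzyme of the ER, was at 364, 383, 196, 298 and 189 CPM in the Apoe-/- libraries and at 329.6, 199.9, 353 and 337 CPM in the Mif-2-/-Apoe-/- libraries. The groups overlapped almost completely, with a log2 fold change of -0.09 (SE 0.32, adjusted p = 0.925) that became 0.11 with TMMwsp scaling. Per kb of exons, Gpat4 made up 91.9 ± 5.34% (SD, n = 5) of the GPAT signal in Apoe-/- and 91.0 ± 5.28% (SD, n = 4) in Mif-2-/-Apoe-/- livers. The mitochondrial enzyme Gpam ranged from 5.23 to 19.2 CPM and from 1.02 to 68.3 CPM, and Gpat3, an ER enzyme, from 3.70 to 9.87 CPM and from 0.504 to 6.71 CPM. Neither differed beyond this spread (adjusted p = 0.569 and 0.834), and 30.0% of the exon bases of Gpat3 lie under an antisense gene from which unstranded reads cannot be separated.

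The second acylation, by the AGPAT enzymes that turn lysophosphatidate into phosphatidate, held genes that moved in opposite directions. Agpat1 (chr17:34604262-34613449, mm10, plus strand) was at 9.33, 4.83, 6.57, 6.05 and 7.16 CPM in the Apoe-/- libraries and at 18.9, 27.8, 18.6 and 41.8 CPM in the Mif-2-/-Apoe-/- libraries. Every Mif-2-/-Apoe-/- library was at least as high as 18.6 CPM and no Apoe-/- library exceeded 9.33 CPM. The log2 fold change was -1.98 (SE 0.56), with adjusted p = 0.154 in edgeR and 0.000934 in DESeq2, and a two-sided exact permutation of the 9 libraries gave p = 0.0079, the smallest it can give. Of the exon bases of Agpat1, 3.37% are shared with Egfl8 on the opposite strand, which had a log2 fold change of -0.87.

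Agpat2 (chr2:26593057-26604417, minus strand), whose loss in mice and humans causes lipodystrophy with fatty liver, went the other way. It was at 147, 189, 98.6, 225 and 115 CPM in the Apoe-/- libraries and at 89.9, 76.7, 73.3 and 72.7 CPM in the Mif-2-/-Apoe-/- libraries, again without overlap. The Mif-2-/-Apoe-/- values were tight (78.1 ± 8.02 CPM, SD, n = 4), whereas the Apoe-/- values were spread (155 ± 52.2 CPM, SD, n = 5). Of the exon bases of Agpat2, 3.0% are shared with Egfl7 on the opposite strand, which had a log2 fold change of 0.89. The log2 fold change of Agpat2 was 0.99 (SE 0.32), with adjusted p = 0.179 in edgeR and 0.0322 in DESeq2.

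Agpat3 (chr10:78269178-78352489, minus strand), an isoenzyme that also acylates other lysophospholipids, had a difference of the same size. Its values were 391, 449, 364, 434 and 256 CPM in Apoe-/- and 208, 266, 125.98 and 169 CPM in Mif-2-/-Apoe-/- livers. The lowest Apoe-/- library, replicate 5, lay just under the highest Mif-2-/-Apoe-/- library, replicate 2, and the other values did not overlap. This gave a log2 fold change of 0.98 (SE 0.31), with adjusted p = 0.175 in edgeR and 0.0203 in DESeq2. The remaining isoforms were low and overlapped between the genotypes, Agpat4 between 8.52 and 69.0 CPM and Agpat5 between 3.43 and 16.6 CPM, and neither passed a test.

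The opposite shifts changed the make-up of the AGPAT family, in which levels can be compared per kb of exons and the scaling of the libraries cancels. Agpat1 took 1.03 to 2.57% of the family signal in the Apoe-/- libraries and 7.55 to 17.6% in the Mif-2-/-Apoe-/- libraries. Agpat2 was the leading isoform by its mean in both genotypes, at 53.4 ± 8.77% (SD, n = 5) and 47.6 ± 5.32% (SD, n = 4), followed by Agpat3 at 36.4 ± 2.96% and 31.3 ± 6.91%. The shares of Agpat1 did not overlap between the genotypes, and those of the other 4 isoforms did. Log2 of Agpat1 over Agpat2 CPM, with 0.5 CPM added to each, was between -5.15 and -3.81 in Apoe-/- livers. In Mif-2-/-Apoe-/- livers it was between -2.22 and -0.79, a separation that follows from that of both genes.

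**Figure D2:**
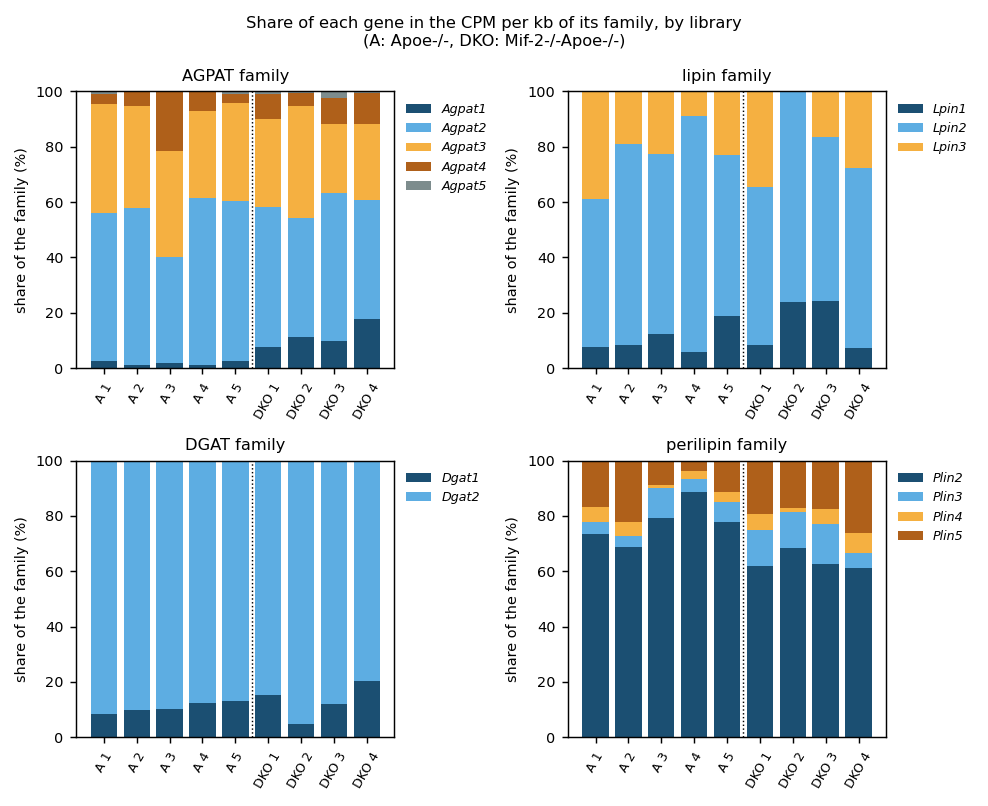
Share of each gene in the summed CPM per kb of exons of its family (y axis, percent) for each of the 9 libraries (x axis, A for Apoe-/- and DKO for Mif-2-/-Apoe-/-, separated by the dotted line). Agpat1 takes 1.03 to 2.57% in the Apoe-/- and 7.55 to 17.6% in the Mif-2-/-Apoe-/- libraries, Plin2 takes at least 68.8% in the Apoe-/- libraries and at most 68.5% in the others, and the lipin and DGAT shares overlap.

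Conversion of phosphatidate to triglyceride was the step with the lowest median in the main fit, a log2 fold change of -0.67 over its 6 genes. With the share of the 10 most abundant genes as a covariate its median was 0.0029, above the -0.028 of phospholipid synthesis and remodelling. Among the libraries in which that share was 15% or more it was -0.052, so the median of this step depended on the fit. Lipins are phosphatidate phosphatases, and Lpin1 and Lpin2 also act as transcriptional coregulators. Lpin2 (chr17:71182560-71249817, plus strand), the main lipin of liver, was at 168, 192, 164, 147 and 193 CPM in the Apoe-/- libraries and at 498, 401, 468 and 271 CPM in the Mif-2-/-Apoe-/- libraries. The Apoe-/- libraries lay close together and below every Mif-2-/-Apoe-/- library. On the log2 scale the difference was -1.25 (SE 0.28), with adjusted p = 0.105 in edgeR and 0.000108 in DESeq2 and an exact permutation p of 0.0079.

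Lpin1 (chr12:16535669-16610966, minus strand), a lipin induced in the fasted liver, was at 18.8, 17.3, 24.9, 7.86 and 49.4 CPM in the Apoe-/- libraries and at 56.3, 100.5, 152 and 23.3 CPM in the Mif-2-/-Apoe-/- libraries. Apoe-/- replicate 5 and Mif-2-/-Apoe-/- replicate 4 made the groups overlap. The log2 fold change was -1.81 (SE 0.57), with adjusted p = 0.175 in edgeR and 0.0603 in DESeq2. Lpin3 varied too widely to be compared, from 4.64 to 36.6 CPM in Apoe-/- and from 0.568 to 90.3 CPM in Mif-2-/-Apoe-/- livers. The shares within the family overlapped, with Lpin2 at 66.9 ± 12.5% (SD, n = 5) and 64.3 ± 8.26% (SD, n = 4).

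The last acylation showed no difference that could be detected. Dgat2, which uses newly made fatty acids and was the most abundant of the 38 genes per kb of all exons (Pemt was with the longest transcript as the length), was at 1249, 1157, 892, 1014 and 612 CPM in the Apoe-/- libraries and at 1011, 1025, 516 and 987 CPM in the Mif-2-/-Apoe-/- libraries. Its log2 fold change was 0.15 (SE 0.32, adjusted p = 0.857), and both genotypes covered the same range. Dgat1, the isoenzyme that re-esterifies exogenous fatty acids, ranged from 92.7 to 143 CPM in Apoe-/- and from 50.5 to 249 CPM in Mif-2-/-Apoe-/- livers (log2 fold change -0.25, SE 0.42, adjusted p = 0.824). Dgat2 made up 89.2 ± 2.02% (SD, n = 5) and 87.0 ± 6.51% (SD, n = 4) of the DGAT signal per kb. Mogat1, a monoacylglycerol acyltransferase that is induced in steatotic liver, was at 2.88, 9.12, 5.63, 4.03 and 0.194 CPM in the Apoe-/- libraries and at 0.203, 3.98, 0.252 and 0 CPM in the Mif-2-/-Apoe-/- libraries. Its values overlapped and rested on few reads (adjusted p = 0.512).

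Among the 4 genes of phospholipid synthesis and remodelling, the largest difference was that of Chka (chr19:3851773-3894369, plus strand), choline kinase alpha, which phosphorylates choline in the first step of the CDP-choline route to phosphatidylcholine. It was at 763, 702, 885, 1316 and 1659 CPM in the Apoe-/- libraries and at 464, 124, 84.4 and 319.8 CPM in the Mif-2-/-Apoe-/- libraries. The Apoe-/- values all lay above the Mif-2-/-Apoe-/- values. This gave a log2 fold change of 2.10 (SE 0.49), which is 4.29-fold, with adjusted p = 0.117 in edgeR and 0.00145 in DESeq2 and an exact permutation p of 0.0079. Pcyt1a, the enzyme that makes CDP-choline and limits the rate of the same route, was between 3.76 and 49.0 CPM in Apoe-/- and between 12.3 and 48.9 CPM in Mif-2-/-Apoe-/- livers, and did not differ detectably (adjusted p = 0.653).

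Pemt (chr11:59970614-60046489, minus strand) makes phosphatidylcholine by methylating phosphatidylethanolamine, a route that is active mainly in hepatocytes. It was at 603, 699.6, 708, 956 and 263 CPM in the Apoe-/- libraries and at 217, 556, 143 and 428 CPM in the Mif-2-/-Apoe-/- libraries. The lowest values of both genotypes fell in Apoe-/- replicate 5 and Mif-2-/-Apoe-/- replicates 1 and 3, the 3 libraries in which the 10 most abundant genes took under 15% of the counts. On the log2 scale the difference was 0.94 (SE 0.44, unadjusted p = 0.0479, adjusted p = 0.316), and with that share as a covariate it was 0.51 (unadjusted p = 0.113). With the same covariate the log2 fold change of Chka was 2.44.

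Lpcat3, which places polyunsaturated fatty acids into phosphatidylcholine, was at 208, 179.9, 177, 316 and 198 CPM in the Apoe-/- libraries and at 445, 347, 131 and 293 CPM in the Mif-2-/-Apoe-/- libraries. Its log2 fold change was -0.49 (SE 0.35, adjusted p = 0.529), with overlapping groups, and 10.2% of its exon bases are shared with Emg1 on the opposite strand.

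Of the 9 genes of the droplet coat and of droplet fusion, 8 had a positive log2 fold change, with a median of 0.83. Plin2 (chr4:86648386-86670060, minus strand), the perilipin that coats droplets in hepatocytes and whose protein is stabilised by stored triglyceride, had the smallest edgeR p of the 38 genes. It was at 941, 1055, 1055, 1612 and 567 CPM in the Apoe-/- libraries and at 287, 456, 305 and 352 CPM in the Mif-2-/-Apoe-/- libraries. Apoe-/- replicate 5 was the lowest of its genotype and still above every Mif-2-/-Apoe-/- library. The log2 fold change was 1.58 (SE 0.34), which is 2.99-fold, with adjusted p = 0.104 in edgeR and 0.000388 in DESeq2. Without Apoe-/- replicate 5 it was 1.73, and without Mif-2-/-Apoe-/- replicate 2 it was 1.83, and in both fits it passed the adjusted threshold of edgeR.

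The other perilipins did not pass a test. Plin5, which tethers droplets to mitochondria, ranged from 40.5 to 204 CPM in Apoe-/- and from 51.1 to 89.6 CPM in Mif-2-/-Apoe-/- livers. Plin3 ranged from 55.8 to 155 CPM and from 32.9 to 92.0 CPM, and Plin4 from 20.7 to 125 CPM and from 17.6 to 68.4 CPM. Within the family, Plin2 took 77.7 ± 7.44% (SD, n = 5) of the signal per kb in Apoe-/- and 63.5 ± 3.35% (SD, n = 4) in Mif-2-/-Apoe-/- livers. The shares of Plin2 just failed to overlap, at 68.8% in the lowest Apoe-/- library and 68.5% in the highest Mif-2-/-Apoe-/- library. With the length of the longest transcript in place of all exons, the same bounds were 79.7% and 79.5%.

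The CIDE proteins, which pass lipid from droplet to droplet and enlarge them, were low. Cidec, a gene that rises in steatosis, ranged from 3.87 to 12.9 CPM in Apoe-/- and from 1.14 to 10.3 CPM in Mif-2-/-Apoe-/- livers (log2 fold change 1.02, SE 0.85, adjusted p = 0.6003). Cidea was at or under 5.50 CPM in the Apoe-/- libraries and at 1.83, 0.568, 19.4 and 0.686 CPM in the Mif-2-/-Apoe-/- libraries, and its log2 fold change of -1.55 became 0.85 without replicate 3. In that library Plin1, a perilipin of adipocytes, was at 34.0 CPM and Acvr1c, another listed adipocyte marker, at 52.7 CPM, both the highest of the 9. Of the other listed markers, Adipoq was at 0.756, Fabp4 at 13.9, Cfd at 21.7, Retn at 2.52 and Lep at 0 CPM. All of these lay within the range of the other libraries. Car3, also on the list, was at 92.0 CPM, the lowest of the 9. Of 8 adipocyte markers 4 reached a median of 1 CPM. The sum of the 8 ranged from 249 to 391 CPM in Apoe-/- and from 134 to 334 CPM in Mif-2-/-Apoe-/- libraries. Most of this sum was Car3, at 92.0 to 354 CPM in all 9 libraries, whereas Adipoq was at 1.07 CPM or less. The sum therefore follows Car3 and is no measure of adipocytes. The part of other cell types in Cidea was not tested. Cideb, the CIDE protein of hepatocytes, was at 8.13 to 27.4 CPM and at 1.51 to 19.3 CPM. Its level is uncertain, since 76.3% of its exon bases are shared with Nop9 on the opposite strand and reads there could be lost to or gained from that gene.

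The droplet enzymes Hsd17b13, known from a human variant that protects against liver disease, and Hsd17b11 had an unadjusted edgeR p just above 0.05. Their adjusted p was 0.346 and 0.349 in edgeR and 0.219 and 0.261 in DESeq2. Hsd17b13 was between 52.2 and 115 CPM in Apoe-/- and between 25.7 and 92.3 CPM in Mif-2-/-Apoe-/- livers (log2 fold change 0.83, SE 0.41, unadjusted p = 0.0601). Hsd17b11 was between 37.1 and 106 CPM and between 15.4 and 62.6 CPM (log2 fold change 1.004, SE 0.50, unadjusted p = 0.0615).

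All 3 genes of droplet formation at the ER had a positive log2 fold change. Fitm1 (chr14:55575617-55576954, plus strand) belongs to the FIT proteins, which partition triglyceride into nascent droplets. It was at 76.3, 98.7, 89.7, 96.4 and 84.2 CPM in the Apoe-/- libraries and at 40.3, 70.4, 39.6 and 56.5 CPM in the Mif-2-/-Apoe-/- libraries. The genotypes did not overlap, and the Apoe-/- libraries were at 89.0 ± 9.12 CPM (SD, n = 5). Of the exon bases of Fitm1, 11.2% lie under an antisense gene. The log2 fold change of Fitm1 was 0.79 (SE 0.32), with adjusted p = 0.263 in edgeR and 0.0729 in DESeq2 and an exact permutation p of 0.0079. Its family member Fitm2 was low, at 2.82 to 10.02 CPM and 0.568 to 4.27 CPM (log2 fold change 1.58, SE 0.96, adjusted p = 0.452). Bscl2, which encodes seipin at the contact of the ER and the droplet, ranged from 79.8 to 255 CPM and from 39.8 to 182 CPM (log2 fold change 0.58, SE 0.44, adjusted p = 0.558).

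None of the genes of lipolysis had an unadjusted edgeR p under 0.05 or a call by DESeq2, and the median over its 5 genes was a log2 fold change of 0.13. Mgll, which cleaves monoacylglycerol in the last step and was the most abundant of these genes per kb, was at 736, 881, 1063, 909 and 716 CPM in the Apoe-/- libraries and at 705, 1082, 632 and 725 CPM in the Mif-2-/-Apoe-/- libraries (log2 fold change 0.13, SE 0.28, adjusted p = 0.865). Pnpla2, the adipose triglyceride lipase that starts the cascade, ranged from 76.9 to 207 CPM in Apoe-/- and from 161 to 284 CPM in Mif-2-/-Apoe-/- livers (log2 fold change -0.58, SE 0.33, unadjusted p = 0.0976). Lipe, the hormone-sensitive lipase, ranged from 28.6 to 64.7 CPM and from 36.8 to 122 CPM (log2 fold change -0.94, SE 0.45, unadjusted p = 0.0539).

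Abhd5, the coactivator of Pnpla2, was at 27.9, 33.4, 31.5, 25.2 and 24.4 CPM in the Apoe-/- libraries and at 5.69, 6.25, 7.05 and 30.2 CPM in the Mif-2-/-Apoe-/- libraries. Of the Mif-2-/-Apoe-/- libraries, 3 lay far below the Apoe-/- range and replicate 4 lay within it. This gave a log2 fold change of 1.20 (SE 0.60, unadjusted p = 0.0652, exact permutation p = 0.0318). It was 2.16 without that replicate, and 16.0% of the exon bases of Abhd5 lie under an antisense gene. Log2 of Abhd5 over Pnpla2 CPM was taken with 0.5 CPM added to each, so that library scaling nearly cancels. It was between -3.01 and -1.64 in Apoe-/- and between -5.18 and -3.22 in Mif-2-/-Apoe-/- livers. These ranges did not overlap, although they came close through the same replicate 4. G0s2, the inhibitor of Pnpla2, was between 0 and 4.07 CPM in all 9 libraries, too low for a comparison at this depth.

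Of the genes of VLDL assembly, Mttp (chr3:138089854-138144968, minus strand), which encodes the transfer protein that loads lipid onto apolipoprotein B, was at 51.9, 73.7, 71.8, 61.5 and 41.04 CPM in the Apoe-/- libraries and at 35.6, 32.9, 15.1 and 29.3 CPM in the Mif-2-/-Apoe-/- libraries. Every Apoe-/- library was above every Mif-2-/-Apoe-/- library, with Apoe-/- replicate 5 the closest. On the log2 scale the difference was 1.09 (SE 0.39), which is 2.13-fold, with adjusted p = 0.213 in edgeR and 0.0351 in DESeq2. Tm6sf2, which is needed for the lipidation of VLDL, was at 63.8, 62.7, 81.2, 143 and 93.9 CPM in the Apoe-/- libraries and at 165, 80.1, 103 and 84.4 CPM in the Mif-2-/-Apoe-/- libraries, with overlapping groups (log2 fold change -0.28, SE 0.35, adjusted p = 0.752).

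Pparg, the nuclear receptor that drives droplet genes in steatotic hepatocytes and in adipocytes, was between 4.56 and 14.1 CPM in Apoe-/- and between 4.28 and 10.97 CPM in Mif-2-/-Apoe-/- livers. The log2 fold change was 0.66 (SE 0.71, adjusted p = 0.704).

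**Figure D3:**
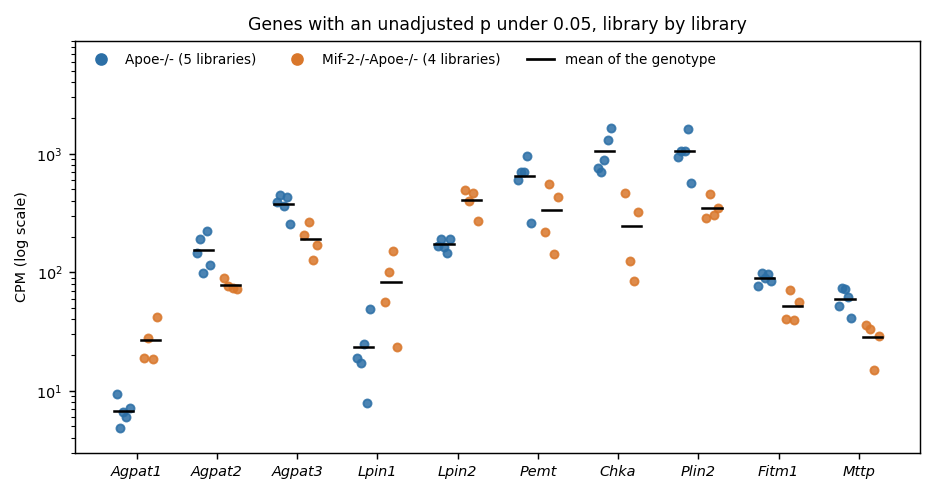
CPM (log axis) of the 10 genes with an unadjusted edgeR p under 0.05 in each library, as blue points for Apoe-/- (n = 5) and orange points for Mif-2-/-Apoe-/- (n = 4), with a black line at the mean. The genotypes do not overlap for Agpat1, Agpat2, Lpin2, Chka, Plin2, Fitm1 and Mttp, and overlap for Agpat3, Lpin1 and Pemt.

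How firmly the 7 genes called by DESeq2 were called depended on the gene. Agpat1, Lpin2, Chka and Plin2 kept an adjusted p under 0.05 in each of the 9 DESeq2 fits with 1 library left out, with the highest adjusted p at 0.0237, 0.00302, 0.0100 and 0.00534. Agpat2 kept it in 3 of the fits (without Apoe-/- replicate 3, without Apoe-/- replicate 5 and without Mif-2-/-Apoe-/- replicate 2), and its adjusted p reached 0.122 in the others. Agpat3 and Mttp kept it in 2 (without Apoe-/- replicate 5 and without Mif-2-/-Apoe-/- replicate 2), and their adjusted p reached 0.0959 and 0.129. Exact permutation of the 9 libraries gave p = 0.0159 for Plin2, Agpat2 and Mttp and 0.0238 for Agpat3. For Lpin1 and Pemt, which DESeq2 did not call, exact permutation gave p = 0.0556 and 0.103. In 6 libraries the 10 most abundant genes took 15% or more of the counts, Apoe-/- replicates 1, 2, 3 and 4 and Mif-2-/-Apoe-/- replicates 2 and 4. Compared only among these, the log2 fold changes were -2.32 for Agpat1, -0.96 for Lpin2, 2.11 for Chka, 1.57 for Plin2, 1.19 for Agpat2, 0.95 for Agpat3 and 1.10 for Mttp. By edgeR, 0 of the 38 genes passed an adjusted p of 0.05 in that fit, against 0.256% of all genes. With the share of the 10 most abundant genes as a covariate, 9 of the 10 genes with an unadjusted edgeR p under 0.05 remained under it, all but Pemt. These 10 genes were picked by the same threshold in the same counts. The share of all such genes that remained under it is not given here.

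Ordered by level per kb of exons, the genes spanned from Dgat2 (305 ± 77.1 CPM per kb, SD, n = 9), Pemt (242 ± 127), Plin2 (209.8 ± 129) and Mgll (163 ± 32.2) at the top to Gpat3 (1.37 ± 0.739), Fitm2 (1.14 ± 0.851) and Agpat5 (0.671 ± 0.397) at the bottom. Of the 37 pairs of neighbours in this order, 36 had overlapping SD bars, all but Mgll and the next gene, Lpcat3 (78.0 ± 31.0). In Apoe-/- livers Dgat2 at 319 ± 80.8, Pemt at 307 ± 119 and Plin2 at 298 ± 107 CPM per kb (SD, n = 5) were level with one another. In Mif-2-/-Apoe-/- livers Dgat2 at 287 ± 79.8 CPM per kb stood above Plin2 at 99.7 ± 21.6, and Pemt at 159.8 ± 90.2 overlapped both (SD, n = 4). These levels take coverage to be even along the transcripts, and the order depends on the length used. With the longest transcript as the length, Pemt at 507 CPM per kb stood above Dgat2 at 416 and Plin2 at 390.2, and Chka at 151 stood above Lpcat3 at 107 (means of the 9 libraries).

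**Figure D4:**
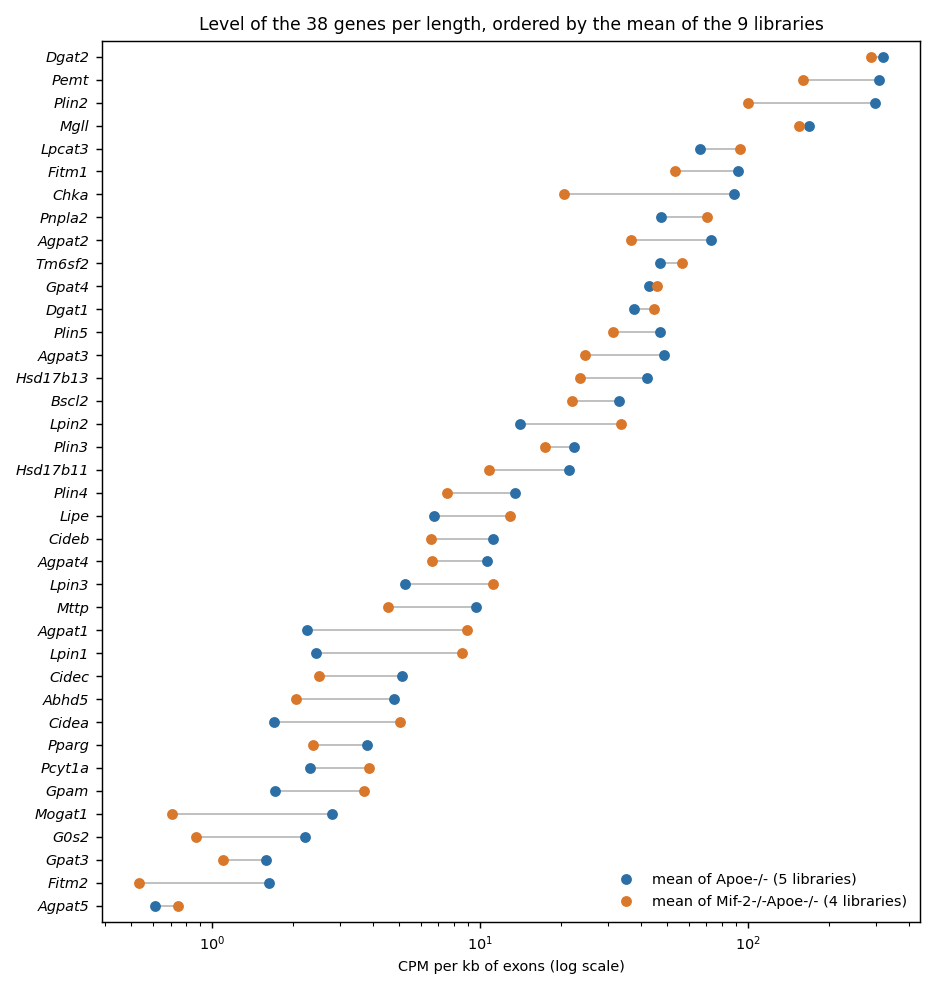
Mean CPM per kb of exons (log axis) of the 38 genes in Apoe-/- (blue, n = 5) and Mif-2-/-Apoe-/- livers (orange, n = 4), ordered by the mean of the 9 libraries. Dgat2, Pemt, Plin2 and Mgll lead, and the widest gaps between the genotypes among genes above 10 CPM per kb are those of Chka and Plin2.

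The stretch of 250 bases before the transcription start is shown for 4 genes, the pair with the largest called difference in each direction (Chka and Plin2, higher in Apoe-/- livers, and Agpat1 and Lpin2, lower), so that the sequences from which they are read can be set side by side. They are taken from RefSeq (GRCm38.p6, the assembly of mm10), are written 5′ to 3′ on the strand of the gene, and carry 4 short motifs in capitals wherever they occur on either strand: the E-box CACGTG, the CCAAT box, the GC box GGGCGG and the TATA box TATAAA, also as their reverse complements. Plin2 is read from chr4:86670060-86670309 (minus strand), Chka from chr19:3851523-3851772, Lpin2 from chr17:71183282-71183531 and Agpat1 from chr17:34605611-34605860, these 3 on the plus strand. Of the 3 listed starts of Lpin2, the one shown was picked for its E-box, which the others lack. Of the 2 listed starts of Agpat1, the one with the most motifs is shown.
Chka: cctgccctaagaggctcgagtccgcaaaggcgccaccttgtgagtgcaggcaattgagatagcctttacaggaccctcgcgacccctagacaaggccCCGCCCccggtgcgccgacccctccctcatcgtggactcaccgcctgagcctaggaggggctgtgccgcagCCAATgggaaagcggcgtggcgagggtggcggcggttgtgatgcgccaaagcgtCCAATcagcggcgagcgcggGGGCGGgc
Plin2: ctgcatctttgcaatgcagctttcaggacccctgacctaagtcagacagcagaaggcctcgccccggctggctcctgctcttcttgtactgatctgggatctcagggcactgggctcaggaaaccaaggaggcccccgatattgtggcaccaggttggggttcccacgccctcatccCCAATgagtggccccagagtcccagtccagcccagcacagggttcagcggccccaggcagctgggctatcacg
Agpat1: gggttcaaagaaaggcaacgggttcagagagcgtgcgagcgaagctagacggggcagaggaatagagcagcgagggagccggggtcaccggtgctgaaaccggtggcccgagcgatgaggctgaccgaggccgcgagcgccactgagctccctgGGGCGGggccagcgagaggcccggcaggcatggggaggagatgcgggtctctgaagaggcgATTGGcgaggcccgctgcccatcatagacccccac
Lpin2: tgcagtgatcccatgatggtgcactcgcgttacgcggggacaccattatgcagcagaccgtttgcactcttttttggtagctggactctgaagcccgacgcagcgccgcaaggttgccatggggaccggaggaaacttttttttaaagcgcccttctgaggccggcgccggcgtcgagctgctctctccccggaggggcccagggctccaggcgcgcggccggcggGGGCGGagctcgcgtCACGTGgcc

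None of the 4 stretches held TATAAA. Lpin2 carried an E-box ending 4 bases before the start with a GC box upstream of it, Chka carried a pair of CCAAT boxes and a pair of GC boxes, Agpat1 carried 1 CCAAT box and 1 GC box, and Plin2 carried 1 CCAAT box. Promoters were found for 32 of the 38 genes (48 starts). An E-box stood in 3 of the 48 stretches (6.25%), those of Lpin2, Lipe and Mgll, against 6.02% of all 32851 promoters in the table. The CCAAT box stood in 31.2% of the stretches against 33.8% of all promoters, the GC box in 52.1% against 32.7%, and the TATA box in 4.17% against 12.4%. A match of letters is a description and not evidence of binding.

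Beyond the 38 genes, 89 other genes of the same pathways were listed by function, and of the 88 tested 0 passed an adjusted p of 0.05 by edgeR. At an unadjusted p under 0.05, 5 were higher (5.68%, against 6.52% of all genes) and 8 were lower in Apoe-/- livers (9.09%, against 8.99%), and their median log2 fold change was 0.07. DESeq2 called 6 of 84 (7.14%, against 4.93%), 3 in each direction. Higher in Apoe-/- livers was Gpd1, which supplies glycerol-3-phosphate to the acyltransferases, at 592, 662, 473, 514 and 321 CPM against 224, 378, 143 and 198 CPM (log2 fold change 1.12, SE 0.34, adjusted p = 0.171 in edgeR, 0.0291 in DESeq2). Lipa, the lysosomal acid lipase, was at 64.8 to 98.5 CPM against 19.7 to 34.6 CPM without overlap (log2 fold change 1.35, SE 0.35, DESeq2 adjusted p = 0.000148). Surf4, the cargo receptor through which lipoproteins leave the ER, was at 175 to 579.9 CPM against 102 to 260.1 CPM (log2 fold change 1.56, SE 0.41, DESeq2 adjusted p = 0.0122).

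The other genes called lower in Apoe-/- livers were a kinase and a pair of transcriptional regulators. Etnk2, ethanolamine kinase of the CDP-ethanolamine route, was at 204, 327, 349.8, 292 and 167 CPM in the Apoe-/- libraries and at 786, 476, 491 and 789 CPM in the Mif-2-/-Apoe-/- libraries (log2 fold change -1.25, SE 0.32, DESeq2 adjusted p = 0.00288). The choline kinase gene Chka and the ethanolamine kinase gene Etnk2 thus differed in opposite directions. Log2 of Chka over Etnk2 CPM, with 0.5 CPM added to each, was between 1.10 and 3.31 in Apoe-/- livers. In Mif-2-/-Apoe-/- livers it was between -2.53 and -0.76, a separation that follows from that of both genes. Log2 of Chka over Pemt overlapped, at 0.00497 to 2.66 in Apoe-/- and -2.16 to 1.09 in Mif-2-/-Apoe-/- livers. Ppargc1b, a coactivator of lipogenic transcription, was at 5.04 to 21.6 CPM against 52.8 to 100.3 CPM (log2 fold change -2.47, SE 0.48, DESeq2 adjusted p = 0.00012). Nr1i3, the xenobiotic receptor CAR, was at 231 to 578 CPM against 354 to 1881 CPM, with overlapping groups (log2 fold change -1.68, SE 0.42, DESeq2 adjusted p = 0.00835).

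Clock output genes, which report the time of day, also differed between the genotypes, and of the fasting response genes some did. Of 8 clock output genes 6 were lower in Apoe-/- livers without overlap (against 2.03% of all genes), among them Dbp at 0.806 to 12.7 CPM against 179 to 432 CPM (log2 fold change -5.42, SE 0.59, adjusted p = 0.000888) and Nr1d1 at 120.2 to 257 CPM against 428 to 527 CPM. Of 8 fasting response genes, Fgf21 was higher (24.0 to 96.7 against 7.77 to 20.7 CPM) and Pck1 lower (414 to 1058 against 1309 to 3002 CPM) without overlap (against 2.24% and 2.03% of all genes), while Cpt1a and Angptl4 did not pass a test. The hour of sampling and the feeding state of the mice are not given in the sources used here, and the part of either in the differences of Agpat1, Lpin2, Chka, Plin2 and the other genes was not tested.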

How the data were processed

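The deposited files hold raw read counts per gene under Entrez identifiers. The authors made them from paired-end Smart-seq2 libraries of RNA captured on oligo-dT beads from frozen liver sections. The sections had been fixed with paraformaldehyde and embedded in OCT compound. Adapters were trimmed with cutadapt, alignment was by HISAT2 (mm10 in the submitters' processing notes), and reads on exons were counted. The counting tool and the tool versions are not given in the sources used here. The libraries are unstranded, so overlapping genes on opposite strands share reads, and removal of PCR duplicates is not stated, so the limit of 3 counts per library covers counting error only.

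One line without a gene was left out. Symbols were matched to 25275 of the 27179 identifiers. A gene needed 1 count in 3 libraries of a genotype, the 10 most abundant genes by mean CPM were dropped, and 16860 genes were tested with edgeR 4.0.16 under R 4.3.3 (quasi-likelihood test, TMM, Benjamini-Hochberg over all genes tested). SE is the log2 fold change over the square root of F. DESeq2 1.42.0 was run on the 23132 genes with a count. Exact two-sided permutation tests went through every arrangement of the 9 libraries on log2(CPM + 0.5). Exon lengths and gene positions came from GENCODE M21 and promoters from RefSeq. The edgeR test was checked on simulated counts.

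The 38 genes and the other lists were chosen with earlier results of these data known. Values were given library by library for genes past an adjusted p of 0.05 in either test, for genes with an unadjusted p under 0.05 or without overlap, and for the most abundant gene of each step per kb. Alternatives were TMMwsp and RLE factors, other filters, the top 10 genes kept, DESeq2, a replicate block, a covariate for the counts taken by the top 10 genes, thinned counts, each library left out, and, added after seeing the data, DESeq2 on the filtered genes, DESeq2 without each library, and only the 6 libraries with a top 10 share of 15% or more.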

Additional observations from a re-analysis of the deposited data

Results flagged for a closer look

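Of 76 sets of values (38 genes in 2 genotypes), 9 held a library whose gap to the nearest other was above the 95% critical value of Dixon's test. Chance flags about 1 in 20 such sets. In Mif-2-/-Apoe-/- livers, Gpat4 was at 199.9 CPM in replicate 2 (329.6 CPM in the nearest other library) and Dgat2 at 516 CPM in replicate 3 (987 CPM). Mogat1 stood at 3.98 CPM in replicate 2 (0.252 CPM), Cidea at 19.4 CPM in replicate 3 (1.83 CPM) and Abhd5 at 30.2 CPM in replicate 4 (7.05 CPM). In Apoe-/- livers, Pcyt1a was at 49.0 CPM in replicate 5 (13.5 CPM), Lpcat3 at 316 CPM in replicate 4 (208 CPM), Cidea at 5.50 CPM in replicate 2 (1.88 CPM) and Pparg at 4.56 CPM in replicate 2 (12.0 CPM). None of these was removed.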

How the results depend on the processing

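The count of genes past an adjusted p of 0.05 by edgeR, 0 of 38, stayed at 0 under other size factors, filters, thinned counts and the covariate. It became 7 with DESeq2, ranged from 0 to 1 with 1 library left out (Plin2, without Apoe-/- replicate 5 or Mif-2-/-Apoe-/- replicate 2), and became 5 with the replicate block (13.2%, against 3.32% of all genes in that fit). The labels do not say that the replicate numbers pair the samples. The deviations of same-numbered libraries correlated at -0.01 to 0.13 and not every library correlated best with its own number, so no pairing by number was seen. Whether libraries share a litter or a day of collection was not tested. Of the other genes of the pathways, 6 were called with DESeq2, 4 with the block, and 0 to 4 with 1 library left out. The genes lower in Apoe-/- livers at an unadjusted p under 0.05 numbered 3 to 5 with 1 library left out, and those called by DESeq2 4 to 10. The shares of all genes called in the fits with 1 library left out are not given here. The counts from those fits therefore do not set these genes apart from the rest. The genes without overlap numbered 13 among the 6 libraries with a top 10 share of 15% or more (34.2%, against 25.2% of all genes there).

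Of the 38 genes, 29 kept their direction in every fit. With the covariate, Gpat4 became 0.0473, Agpat5 0.0679, Lpin3 1.05 and Mgll -0.0245 on the log2 scale. Among the 6 libraries, Gpat4 became 0.27, Agpat5 0.58, Lpin3 0.14, Cidea 1.84 and Tm6sf2 0.14. With TMMwsp, with the top 10 genes kept and with the block, Gpat4 became 0.108, 0.00206 and 0.0122, and with the block Dgat1 became 0.0836. With 1 library left out, the values spanned -1.52 to 0.173 for Gpam, -0.154 to 0.117 for Gpat4, -0.536 to 0.363 for Agpat5, -0.472 to 0.206 for Dgat1, -0.0329 to 0.331 for Dgat2 and -2.44 to 0.845 for Cidea. The cause was not tested. The median over all genes lay between -0.30 (DESeq2) and 0.00 (TMMwsp). Depth limits the 6 genes with a library under 3 counts (Gpat3, Lpin3, Mogat1, Cidea, Fitm2 and G0s2).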
